A study of Mus musculus with 24 samples.

Results

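The genes examined are 50 cyclins, cyclin-dependent kinases (CDKs), CDK inhibitors, E2F and pocket-protein genes and mitosis genes, chosen by symbol from the probe table of an Illumina mouse expression array. Of the 50, 45 had a probe with that symbol, and 40 had a probe detected above the negative control beads on both arrays of at least 1 group. These 40 genes, 17 that act in G1 or at the G1/S boundary and 23 that act in G2 or mitosis, were tested among 8622 genes, each through its brightest detected probe. The macrophage-like mouse line RAW264.7 was exposed to 100 ng/ml LPS, to 1 μM P3C (the lipopeptide Pam3CSK4) or to 1 μM R848 (resiquimod), which stimulate TLR4, TLR2 and TLR7 in that order, or was left untreated, and RNA was taken at 1, 2 and 4 h. Each of the 12 groups had 2 arrays, A and B, which the methods call duplicate biological samples. The p-values therefore rest on the spread between duplicates of 1 line, pooled over the 12 groups and moderated across genes. RAW264.7 is a transformed line that divides without added growth factor, unlike most resident macrophages, and the cells were not described as synchronized.

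Progress through G1 depends on D cyclins with Cdk4 and Cdk6 and then on E cyclins with Cdk2, which phosphorylate the Rb family of pocket proteins and release E2F factors. CDK inhibitors such as p21, encoded by Cdkn1a, bind and restrain these kinases. In G2 and mitosis, A and B cyclins with Cdk1, the Polo-like and Aurora kinases, the spindle checkpoint and the anaphase-promoting complex act in turn, and most of their transcripts peak in G2/M in dividing cells. Toll-like receptor ligands are known to slow the division of macrophages, and p21 and Myc are both known as genes that respond early to such ligands.

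Arrays had median signals of 95.8 to 115 and detected 12299 to 13917 probes. Of 9 macrophage markers with a probe, 7 were detected on all 24 arrays and none on no array, whereas the T cell (2), B cell (1), fibroblast (2) and dendritic cell (1) markers were detected on 0 arrays, as was 1 of 2 epithelial markers. Signals are given as log2 values after quantile normalization, and differences as log2 differences (ligand minus untreated at the same time) with the standard error (SE) of the limma fit. A gene is called higher or lower where the Benjamini-Hochberg adjusted p of limma's moderated test, over all 8622 genes, was under 0.05. The arrays were spread over 10 slides, none of which carried both treated and untreated arrays of the same time, so slide and treatment cannot be told apart within a time.

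After 4 h, the cell cycle genes that were called against untreated cells were mostly lower, and their number was largest with LPS. With LPS 23 of 40 members were called lower (16.0% of all genes were) and 2 higher (10.8% of all genes). With P3C 9 were called lower (5.43% of all genes) and 2 higher (5.40%), and with R848 11 lower (6.38%) and 2 higher (6.30%). The median log2 difference over the 40 members was -0.60 with LPS, -0.33 with P3C and -0.37 with R848, beside -0.06, -0.02 and -0.03 over all genes tested. The 2 members called higher with each ligand were Cdkn1a and Myc. Myc had passed the detection filter through treated groups alone, so its count as higher is not independent of that filter. In bulk RNA, fewer cells in a given phase and less transcript per cell cannot be told apart. When single arrays were left out in turn, 11 of the 23 lower calls with LPS held in every case, as did 3 of 9 with P3C and 5 of 11 with R848. The directions are relative to other genes: with each array scaled to its median in place of quantile normalization, the median of all genes moved to -0.33 with LPS, -0.06 with P3C and -0.10 with R848, 18.5% of the genes called with LPS were higher in place of 40.4%, 62.3% with P3C in place of 49.9% and 55.6% with R848 in place of 49.7%. With that scaling 23 members were called lower with LPS, 0 with P3C and 0 with R848, whereas the member medians stayed below that of all genes. The 23 are not the same genes, as Ccnd3, Aurkb, Bub1b, Top2a and Mki67 lost their LPS call. Of all 8622 genes, 1428 were lower with LPS in place of 1377, 93 with P3C in place of 468 and 131 with R848 in place of 550.

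More members were called lower at each later time. At 1 h no member was called lower with any ligand (1.41%, 1.29% and 1.38% of all genes were lower with LPS, P3C and R848) in limma's test, although 7, 7 and 8 members had an unadjusted p under 0.05 in either direction. Cdkn1a was called higher with all 3 ligands at 1 h and Myc with LPS and R848 (2.10%, 1.73% and 2.03% of all genes were called higher with LPS, P3C and R848). At 2 h LPS left 11 members lower (6.33% of all genes) and 2 higher (5.52%), P3C 3 lower (2.41%) and 2 higher (3.07%), and R848 4 lower (3.24%) and 2 higher (3.34%). Few of the lower calls at 2 h held whichever array was left out, 2 of 11 with LPS (Cdk2 and Cdkn2d, and 0 of the 6 G2/M genes), 1 of 3 with P3C and 2 of 4 with R848. Cdk2, Cdkn2d and Mad2l1 were the 3 members called lower with every ligand at 2 h. At 4 h there were 9, namely Ccnd3, Ccne1, Ccne2, Cdk2, E2f1, Rbl1, Ccng1, Mad2l1 and Nusap1. A further 12 members carried a call with LPS alone at 4 h, which does not show that the ligands differed. The tests between ligands are given further on. The share of all genes with each of these patterns was not counted. Lower calls at 4 h were more frequent with LPS over all genes too (16.0%, beside 5.43% with P3C and 6.38% with R848).

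**Figure D1:**
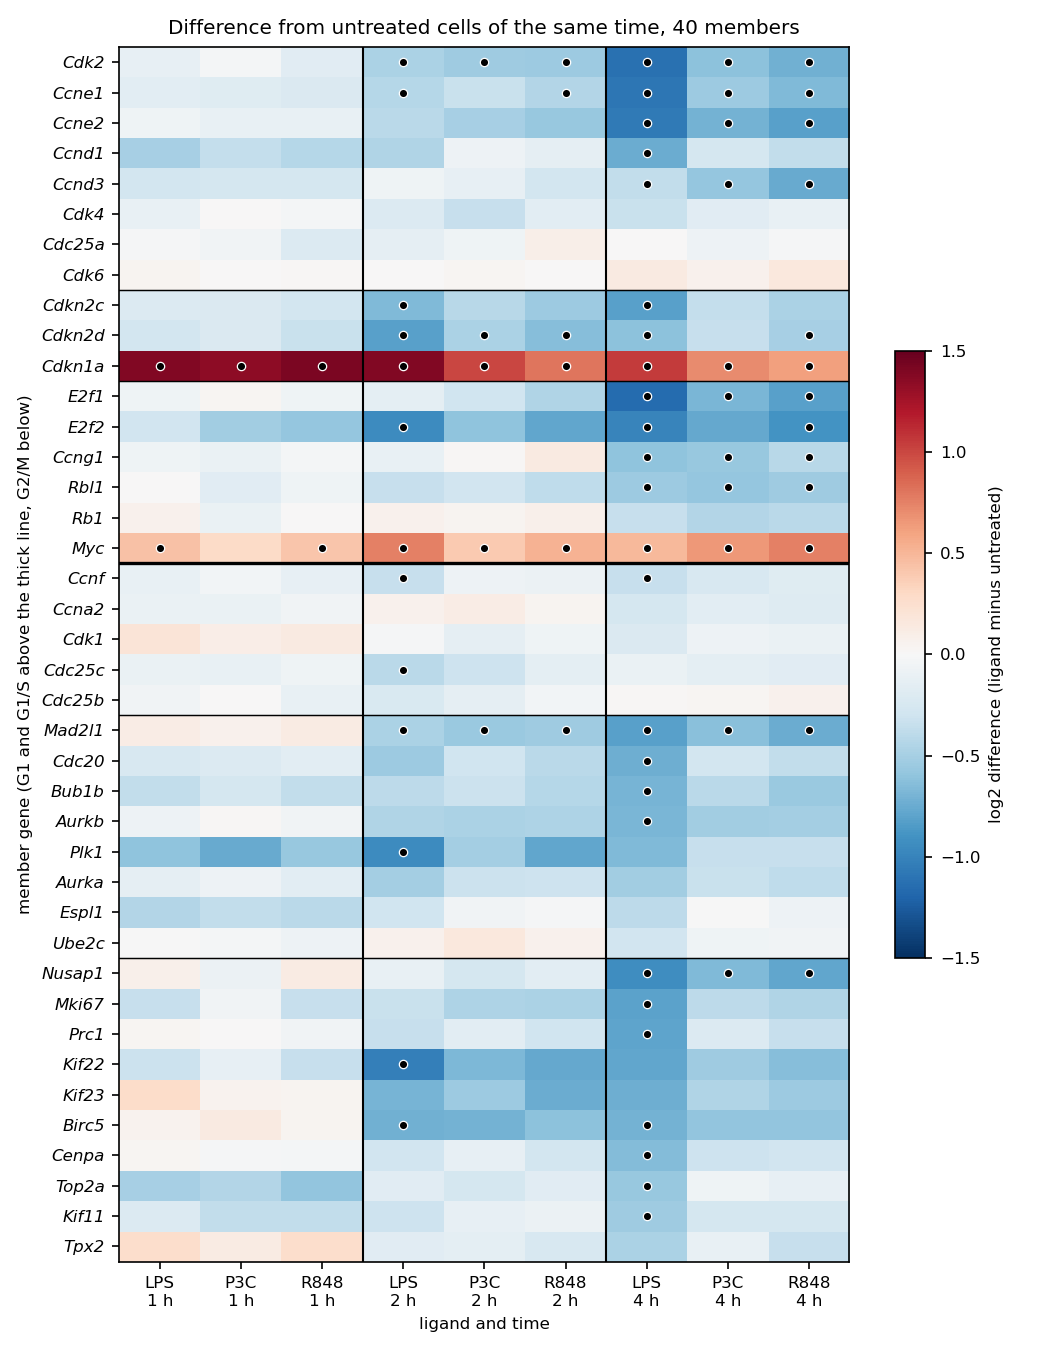
Log2 difference from untreated cells of the same time (colour) for the 40 members tested, in columns for LPS, P3C and R848 at 1, 2 and 4 h. Rows are grouped by role, with 17 G1 and G1/S genes above the thick line and 23 G2/M genes below it, and black dots mark calls at an adjusted p under 0.05. Cdkn1a and Myc are red in every column and the blue deepens towards the LPS column at 4 h.

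Promoter sequence was available from RefSeq (GRCm38.p6, 250 bases before to 50 bases after the annotated start) for 40 of the 50 members, matched by symbol. It was searched on both strands for the cell cycle homology region (CHR, TTTGAA), at which the DREAM and MuvB complexes bind, for the CCAAT box, at which NF-Y binds, and for an E2F-type motif (GGCGGGAA). A CHR match was present for 17 of 24 G2/M members and 2 of 16 G1 and G1/S members, beside 20.2% of 27025 genes in the table. All 19 members with a CHR match also had a CCAAT box, a combination found in 8.97% of all genes. A CCAAT box was present for 21 of 24 G2/M members and 9 of 16 G1 and G1/S members, beside 41.1% of all genes. GGCGGGAA was found in 0 of 40 members and 2.52% of all genes. The shorter form GCGGGAA, which lies within it and was searched after the data were seen, was found in 2 members, Cdk2 and Cdkn2c, and 5.29% of all genes. A match is a description of the letters and not of binding. The 5 promoters printed here were chosen because their genes were all lower with LPS at 4 h yet differ in these letters: Cdk2 and Mad2l1, lower with all 3 ligands, and Prc1, Cdc20 and Ccnf, called with LPS. Capitals mark the matches, and each sequence runs 5′ to 3′ on the strand of the gene.
Prc1 (chr7:80294201-80294500, plus strand): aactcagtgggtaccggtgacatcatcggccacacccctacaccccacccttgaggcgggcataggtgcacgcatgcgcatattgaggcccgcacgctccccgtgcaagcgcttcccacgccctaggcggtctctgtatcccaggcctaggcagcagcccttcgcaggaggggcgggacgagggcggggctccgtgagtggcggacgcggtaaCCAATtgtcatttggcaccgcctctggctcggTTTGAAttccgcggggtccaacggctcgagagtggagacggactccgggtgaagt
Cdc20 (chr4:118437294-118437593, minus strand): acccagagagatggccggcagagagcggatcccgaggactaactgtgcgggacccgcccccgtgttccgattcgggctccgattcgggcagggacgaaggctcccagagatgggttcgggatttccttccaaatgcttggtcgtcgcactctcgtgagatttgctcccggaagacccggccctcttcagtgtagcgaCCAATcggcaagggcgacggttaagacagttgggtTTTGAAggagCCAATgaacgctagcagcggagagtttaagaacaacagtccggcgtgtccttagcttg
Ccnf (chr17:24251360-24251659, minus strand): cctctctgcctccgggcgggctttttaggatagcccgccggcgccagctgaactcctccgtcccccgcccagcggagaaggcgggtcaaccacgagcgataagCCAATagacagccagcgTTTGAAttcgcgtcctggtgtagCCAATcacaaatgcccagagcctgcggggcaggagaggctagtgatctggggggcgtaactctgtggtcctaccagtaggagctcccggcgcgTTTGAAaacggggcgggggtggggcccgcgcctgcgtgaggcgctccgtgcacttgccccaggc
Cdk2 (chr10:128705002-128705301, minus strand): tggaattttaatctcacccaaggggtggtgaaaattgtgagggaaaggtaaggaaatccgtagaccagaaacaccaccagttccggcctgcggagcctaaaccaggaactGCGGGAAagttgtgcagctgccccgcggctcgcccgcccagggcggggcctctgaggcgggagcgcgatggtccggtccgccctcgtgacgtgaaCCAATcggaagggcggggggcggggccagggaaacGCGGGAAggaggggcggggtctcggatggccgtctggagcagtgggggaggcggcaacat
Mad2l1 (chr6:66534971-66535270, plus strand): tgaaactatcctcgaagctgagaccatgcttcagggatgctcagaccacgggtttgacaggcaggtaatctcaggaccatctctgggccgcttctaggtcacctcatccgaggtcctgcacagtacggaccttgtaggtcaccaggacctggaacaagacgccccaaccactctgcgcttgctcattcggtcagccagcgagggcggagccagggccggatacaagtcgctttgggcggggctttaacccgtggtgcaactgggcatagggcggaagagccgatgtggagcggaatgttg

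In Prc1 a CCAAT box began 37 bases before the start and a CHR 5 bases before it, in the first of the gene's 2 promoters in the table. Cdc20 had CCAAT boxes 53 and 8 bases before the start with a CHR between them at 18 bases, and Ccnf had 2 of each. Cdk2 had 1 CCAAT box and 2 copies of GCGGGAA, and Mad2l1 had no match to any of the motifs. Of the 15 tested G2/M members with a CHR match, 8 were called lower at 4 h in LPS cells, 0 in P3C cells and 0 in R848 cells, and their median differences were -0.65, -0.28 and -0.34. Of the 4 tested G2/M members whose promoter had none (Cdc25b, Mad2l1, Birc5 and Nusap1), 3 were called lower with LPS, 2 with P3C and 2 with R848, and their medians were -0.76, -0.61 and -0.67. The difference between these sets of genes was not tested.

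**Figure D2:**
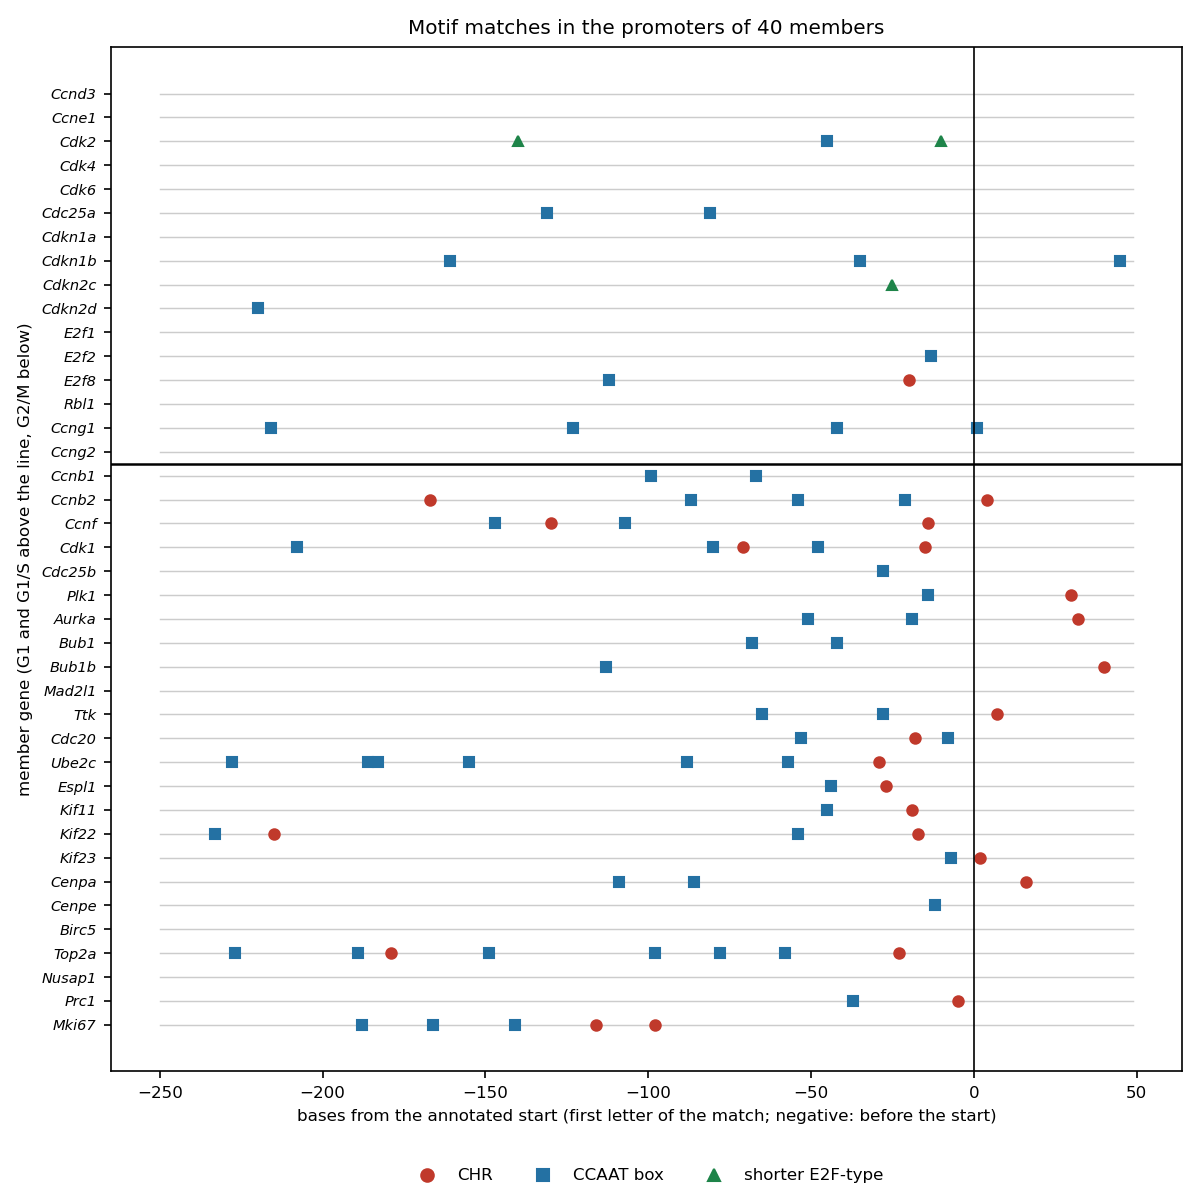
Position of CHR (red circles), CCAAT (blue squares) and GCGGGAA (green triangles) matches along the first listed promoter of 40 members, in bases from the annotated start, with G1 and G1/S genes above the line and G2/M genes below. CHR matches are nearly all in the lower block, where 17 of 24 genes have one in any of their promoters.

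Among the D and E cyclins and their kinases, 5 of 8 tested members were lower at 4 h in LPS cells, 4 in P3C cells and 4 in R848 cells. Cdk2, the kinase partner of the E and A cyclins, read 9.17 and 9.26 in LPS cells, 9.78 and 9.67 in P3C cells and 9.65 and 9.58 in R848 cells, against 10.33 and 10.35 in untreated cells. All 6 treated arrays lay below both untreated arrays, and both LPS arrays lay below the P3C and R848 arrays. The differences were -1.12 (SE 0.0937, adjusted p = 2.48e-07, 2.18-fold lower) with LPS, -0.61 (adjusted p = 0.000378) with P3C and -0.72 (adjusted p = 6.54e-05) with R848. The other 3 kept probes of Cdk2 were also lower with LPS, by -0.91, -0.75 and -0.68, and with P3C, where none of them was called, they had -0.49, -0.38 and -0.35. At 2 h Cdk2 had already been lower by -0.47 with LPS (9.89 and 9.87, against 10.33 and 10.36 in untreated cells), -0.53 with P3C and -0.54 with R848.

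Ccne1, which encodes cyclin E1, read 7.20 and 7.07 in LPS cells, 7.69 and 7.68 in P3C cells and 7.52 and 7.60 in R848 cells at 4 h, against 8.17 and 8.26 in untreated cells. Ccne2, for cyclin E2, read 6.95 and 7.15 in LPS cells, 7.48 and 7.32 in P3C cells and 7.43 and 7.16 in R848 cells, against 8.05 and 8.17 in untreated cells. For both cyclins every treated array lay below both untreated arrays. Ccne1 differed by -1.08 (SE 0.122, adjusted p = 6.25e-06, 2.12-fold lower) with LPS, -0.54 (adjusted p = 0.00844) with P3C and -0.66 (adjusted p = 0.00156) with R848, and Ccne2 by -1.06 (SE 0.193, adjusted p = 0.000731), -0.71 (adjusted p = 0.0266) and -0.82 (adjusted p = 0.0103). The Ccne1 call with P3C ended without P3C array B (-0.53) or untreated array B (-0.49). The Ccne2 call with P3C ended without any 1 of its 4 arrays (-0.79 to -0.63), and that with R848 without R848 array B (-0.68) or untreated array B (-0.75).

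The D cyclins, which pair with Cdk4 and Cdk6, gave a mixed pattern. Ccnd1 read 11.90 and 11.72 in LPS cells, 12.20 and 12.39 in P3C cells and 12.07 and 12.31 in R848 cells at 4 h, against 12.44 and 12.68 in untreated cells. LPS arrays were the lowest for Ccnd1, and the difference was -0.75 (SE 0.164, adjusted p = 0.00295) with LPS, with -0.26 (adjusted p = 0.395) for P3C and -0.37 (adjusted p = 0.179) for R848. Ccnd3 read 10.03 and 9.79 in LPS cells, 9.61 and 9.79 in P3C cells and 9.40 and 9.63 in R848 cells, against 10.30 and 10.26 in untreated cells. Here the R848 arrays included the lowest value and the differences were -0.37 (adjusted p = 0.0420) with LPS, -0.58 (adjusted p = 0.00593) with P3C and -0.76 (SE 0.125, adjusted p = 0.000598) with R848. The LPS call for Ccnd3 ended without LPS array B (-0.25), untreated array A (-0.35) or untreated array B (-0.39), and the P3C call without P3C array A (-0.49) or untreated array A (-0.56). The second probe of Ccnd3 gave -0.27, -0.29 and -0.43 and was not called. Cdk4, Cdk6 and Cdc25a, the phosphatase that activates Cdk2, were called in no comparison with untreated cells; with LPS at 4 h they differed by -0.33, 0.14 and 0.01.

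The CDK inhibitors moved in opposite directions. Cdkn1a (p21) read 11.75 and 11.92 in LPS cells, 11.81 and 11.75 in P3C cells and 11.85 and 11.85 in R848 cells at 1 h, against 10.70 and 10.19 in untreated cells. The 6 treated arrays at 1 h lay close together and far above both untreated arrays. The differences at 1 h were 1.39 (SE 0.175, adjusted p = 0.000101, 2.63-fold) with LPS, 1.34 (adjusted p = 0.000229) with P3C and 1.41 (adjusted p = 0.000102) with R848. At 2 h Cdkn1a read 12.24 and 11.87 in LPS cells, 11.71 and 11.64 in P3C cells and 11.48 and 11.46 in R848 cells, against 10.85 and 10.49 in untreated cells, and at 4 h 11.96 and 11.64, 11.35 and 11.55, and 11.20 and 11.53, against 10.68 and 10.82. At both times every treated array lay above both untreated arrays, and at 4 h the P3C and R848 arrays overlapped. The differences were 1.39, 1.00 and 0.80 at 2 h (adjusted p = 5.17e-05, 0.00237 and 0.0103) and 1.05, 0.71 and 0.62 at 4 h (adjusted p = 0.000309, 0.0146 and 0.0290) for LPS, P3C and R848. Calls at some smaller differences ended when single arrays were left out, although the difference did not always shrink. The R848 call at 2 h ended without R848 array A (0.79) or untreated array B (0.62). At 4 h the P3C call ended without P3C array B (0.61) or untreated array A (0.64). The R848 call at 4 h ended without R848 array B (0.45), untreated array A (0.55) or untreated array B (0.69). With median scaling the calls at 1 h ended, at differences of 1.65, 1.53 and 1.54 (adjusted p = 0.0561, 0.133 and 0.107 with LPS, P3C and R848). That scaling also ended the calls with P3C and R848 at 2 h and with every ligand at 4 h. With the second brightest probe the LPS call at 1 h and the P3C and R848 calls at 2 and 4 h ended. No difference between ligands in Cdkn1a was called, the largest being LPS minus R848 at 2 h, 0.59 (SE 0.175, adjusted p = 0.229).

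Cdkn2c (p18) and Cdkn2d (p19), inhibitors of Cdk4 and Cdk6, were lower. Cdkn2c read 8.25 and 8.43 in LPS cells, 8.80 and 8.79 in P3C cells and 8.71 and 8.67 in R848 cells at 4 h, against 9.06 and 9.26 in untreated cells. Cdkn2d read 7.45 and 7.63 in LPS cells, 7.80 and 7.82 in P3C cells and 7.62 and 7.68 in R848 cells at 4 h, against 8.04 and 8.26 in untreated cells. Treated and untreated arrays did not overlap for these inhibitors. Cdkn2c differed by -0.82 (SE 0.164, adjusted p = 0.00148) with LPS, with -0.36 (adjusted p = 0.198) for P3C and -0.47 (adjusted p = 0.0738) for R848. Cdkn2d differed by -0.61 (SE 0.109, adjusted p = 0.000647) with LPS, by -0.50 (adjusted p = 0.00587) with R848 and by -0.34 (adjusted p = 0.0597) with P3C. The Cdkn2d call with R848 ended without R848 array A (-0.47) or untreated array B (-0.38). At 2 h Cdkn2d was lower with all 3 ligands, by -0.82 (adjusted p = 9.39e-05) with LPS, -0.47 (adjusted p = 0.0179) with P3C and -0.64 (adjusted p = 0.00155) with R848, the P3C call ending without P3C array A (-0.48), P3C array B (-0.46) or untreated array B (-0.37). Cdkn1b (p27) was detected on 0 of 24 arrays.

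**Figure D3:**
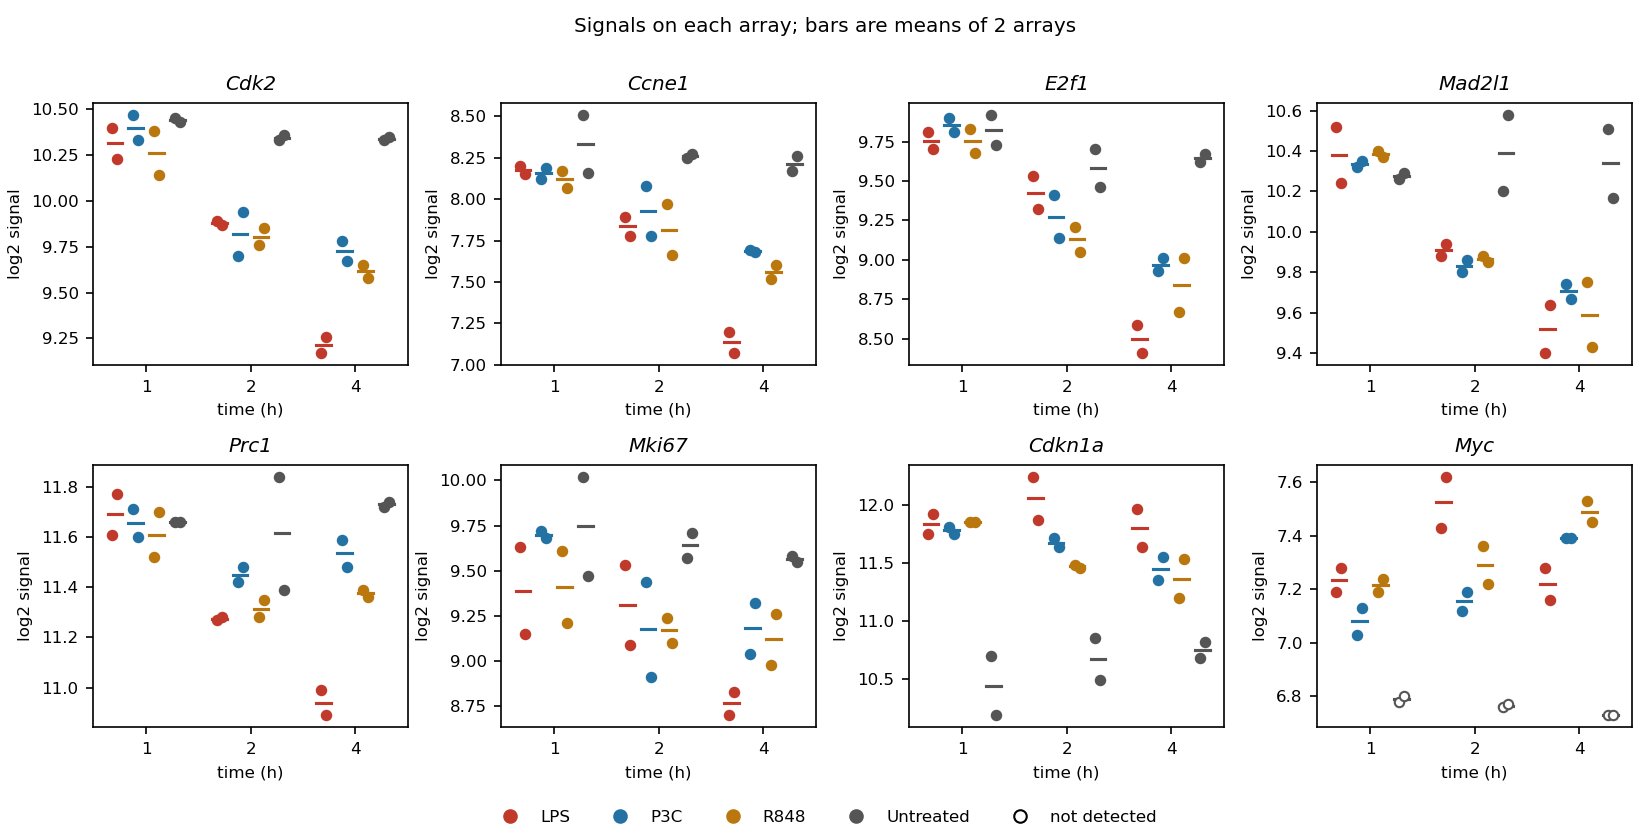
Normalized log2 signal of each array for 8 members, with LPS, P3C, R848 and untreated arrays from left to right at 1, 2 and 4 h, bars at the mean of 2 arrays and open circles for arrays where the probe was not detected; each panel has its own axis, which does not start at 0. Treated arrays of Cdk2 lie together at 2 h (9.70 to 9.94) and the LPS arrays lie apart at 4 h (9.17 and 9.26), whereas Cdkn1a is high from 1 h on.

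Among the transcription factors, E2f1 was lower with all 3 ligands, E2f2 was lower with LPS and R848, and Myc was higher. E2f1, an activator of S-phase genes, read 8.59 and 8.41 in LPS cells, 8.93 and 9.01 in P3C cells and 8.67 and 9.01 in R848 cells at 4 h, against 9.62 and 9.67 in untreated cells. All treated arrays lay below the untreated ones, by -1.15 (SE 0.130, adjusted p = 6.82e-06, 2.21-fold lower) with LPS, -0.68 (adjusted p = 0.00244) with P3C and -0.81 (adjusted p = 0.000504) with R848. At 2 h E2f1 was called with no ligand (-0.15, -0.30 and -0.45). E2f2, a second activator, read 6.92 and 6.72 in LPS cells, 7.04 and 7.03 in P3C cells and 6.89 and 6.93 in R848 cells at 4 h, against 7.99 and 7.62 in untreated cells, and LPS array B and R848 array A did not pass detection. It differed by -0.99 (adjusted p = 0.00589) with LPS, -0.90 (adjusted p = 0.0209) with R848 and -0.77 (adjusted p = 0.0510) with P3C. A second probe of E2f2 gave -1.09 with LPS and -0.91 with P3C, both called (adjusted p = 0.0483 with P3C). The LPS call ended without LPS array B (-0.89) or untreated array A (-0.80), and the R848 call without R848 array A (-0.87), R848 array B (-0.92) or untreated array A (-0.71).

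Myc, the growth-promoting transcription factor, did not pass detection on any untreated array, so its rises are lower bounds, set by the dimmest signals that count as detected. The detection filter kept Myc through its 9 treated groups alone, which favoured a rise in advance. The direction is therefore no independent support. The adjusted p-values given with the bounds are those of limma's test of the measured differences and do not test the bounds. At 1 h Myc read 7.19 and 7.28 in LPS cells, 7.03 and 7.13 in P3C cells and 7.19 and 7.24 in R848 cells, against 6.78 and 6.80 in untreated cells. At 2 h it read 7.43 and 7.62, 7.12 and 7.19, and 7.36 and 7.22, against 6.76 and 6.77, and at 4 h 7.28 and 7.16, 7.39 and 7.39, and 7.53 and 7.45, against 6.73 and 6.73. Every treated array lay above every untreated one. Myc was at least 1.28-fold higher with LPS at 1 h (adjusted p = 0.00214), at least 1.54-fold at 2 h (adjusted p = 4.56e-06) and at least 1.26-fold at 4 h (adjusted p = 0.000167). With P3C the bounds were 1.15-fold at 1 h (adjusted p = 0.0558), 1.19-fold at 2 h (adjusted p = 0.00525) and 1.42-fold at 4 h (adjusted p = 2.61e-05), and with R848 1.26-fold (adjusted p = 0.00357), 1.30-fold (adjusted p = 0.000390) and 1.52-fold (adjusted p = 5.12e-06). LPS arrays were the highest at 2 h and the lowest of the treated arrays at 4 h. Myc calls ended without R848 array B at 1 h (0.39) and without P3C array B at 2 h (0.35).

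Rbl1 (p107), a pocket protein that is itself an E2F target, and Ccng1, encoding cyclin G1, were lower with all 3 ligands at 4 h. Rbl1 read 7.86 and 7.62 in LPS cells, 7.69 and 7.73 in P3C cells and 7.88 and 7.65 in R848 cells, against 8.33 and 8.25 in untreated cells. Ccng1 read 8.80 and 8.88 in LPS cells, 8.92 and 8.83 in P3C cells and 9.08 and 8.96 in R848 cells, against 9.53 and 9.35 in untreated cells. For these genes the ligands lay close together, at -0.55, -0.58 and -0.53 for Rbl1 (adjusted p = 0.00376, 0.00594 and 0.0101) and -0.60, -0.57 and -0.42 for Ccng1 (adjusted p = 0.000641, 0.00240 and 0.0169) with LPS, P3C and R848. The Rbl1 calls ended without LPS array B (-0.43) for LPS, without untreated array A (-0.54) for P3C and without R848 array B (-0.41) or untreated array A (-0.49) for R848, and the Ccng1 call with R848 ended without R848 array B (-0.36) or untreated array A (-0.33). The second probe of Ccng1 gave -0.31, -0.38 and -0.35 and was not called. Rb1 was called with no ligand (-0.34, -0.44 and -0.40 at 4 h).

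Of the G2/M cyclins, Cdk1 and the Cdc25 phosphatases, 5 were tested and 1 was called at 4 h. Ccnf, encoding the F-box protein cyclin F, averaged 6.99 ± 0.01 in LPS cells, 7.10 ± 0.03 in P3C cells and 7.16 ± 0.01 in R848 cells, against 7.34 ± 0.02 in untreated cells (SD, n = 2 each). None of the 4 groups overlapped, and the difference was -0.35 (SE 0.0922, adjusted p = 0.0104) with LPS, ending without LPS array A (-0.34) or untreated array A (-0.34), with -0.24 for P3C and -0.18 for R848. Cdc25c, which activates Cdk1 at mitotic entry, read 7.77 and 7.89 in LPS cells at 2 h, 8.00 and 7.85 in P3C cells and 8.12 and 8.04 in R848 cells, against 8.20 and 8.26 in untreated cells. It was lower by -0.40 (adjusted p = 0.00705) with LPS at 2 h, ending without LPS array A (-0.34) or untreated array B (-0.37), and was called with no ligand at 4 h (-0.10, -0.15 and -0.17). Cdk1, the mitotic kinase, had -0.22, -0.08 and -0.10 at 4 h (SE 0.278) and Cdc25b 0.02, 0.03 and 0.07, and neither was called at any time. Ccna2 (cyclin A2) passed detection on both untreated arrays at 4 h and on neither LPS array, with -0.26 (adjusted p = 0.208).

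Among the mitotic kinases, the checkpoint and the proteolysis genes, 4 of 8 were lower with LPS at 4 h and 1, Mad2l1, with every ligand. Mad2l1, the checkpoint protein that holds back Cdc20, read 9.40 and 9.64 in LPS cells, 9.74 and 9.67 in P3C cells and 9.75 and 9.43 in R848 cells, against 10.51 and 10.17 in untreated cells. Its treated arrays lay below both untreated arrays, by -0.82 (SE 0.140, adjusted p = 0.000400), -0.63 (adjusted p = 0.00713) and -0.75 (adjusted p = 0.00179), and its second probe gave -0.61, -0.53 and -0.63. The P3C call ended without P3C array B (-0.60) or untreated array A (-0.46). At 2 h Mad2l1 was lower by -0.48, -0.56 and -0.53 (adjusted p = 0.0356, 0.0274 and 0.0332), and these calls all ended without untreated array B (-0.29, -0.37 and -0.34) or without either array of the ligand.

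Cdc20, the activator of the anaphase-promoting complex, read 10.19 and 10.45 in LPS cells, 10.79 and 10.76 in P3C cells and 10.71 and 10.65 in R848 cells at 4 h, against 10.96 and 11.14 in untreated cells. Bub1b, the checkpoint kinase BubR1, read 9.59 and 9.25 in LPS cells, 9.61 and 9.82 in P3C cells and 9.40 and 9.72 in R848 cells, against 10.16 and 10.09 in untreated cells. Aurkb, the kinase of the chromosomal passenger complex, read 9.04 and 9.15 in LPS cells, 9.18 and 9.33 in P3C cells and 9.27 and 9.25 in R848 cells, against 9.85 and 9.70 in untreated cells. For these 3 genes no treated array reached the untreated range, and the LPS call was -0.73 (adjusted p = 0.0234) for Cdc20, -0.70 (adjusted p = 0.0466) for Bub1b and -0.68 (adjusted p = 0.00613) for Aurkb. Each call ended when single arrays were left out, although the difference did not always shrink. Cdc20 lost its call without LPS array A (-0.60), untreated array A (-0.83) or untreated array B (-0.64). Bub1b lost its call without any 1 of its 4 arrays (-0.87 to -0.53), and Aurkb without LPS array A (-0.62) or untreated array A (-0.61). Dimmer probes of Cdc20 (-0.52 and -0.62) and Bub1b (-0.53) were also called lower with LPS at 2 h, when the brightest were not (-0.54 and -0.39). With P3C and R848 the differences were -0.28 and -0.37 for Cdc20, -0.41 and -0.56 for Bub1b and -0.52 and -0.51 for Aurkb, none called.

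Plk1, the Polo-like kinase of mitotic entry, was called at 2 h and not at 4 h. It read 10.04 and 10.53 in LPS cells at 2 h, 10.40 and 11.03 in P3C cells and 10.05 and 10.84 in R848 cells, against 11.32 and 11.13 in untreated cells. Treated arrays lay below both untreated arrays, the ligands overlapped one another, and the LPS difference was -0.94 (SE 0.249, adjusted p = 0.0219), ending without LPS array A (-0.69), untreated array A (-0.84) or untreated array B (-1.03). At 4 h Plk1 had -0.66 (adjusted p = 0.0625) with LPS, and P3C and R848 cells both had -0.34. Aurka, Ube2c and Espl1 (separase) were called in no comparison with untreated cells, with -0.52, -0.29 and -0.39 for LPS at 4 h.

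Among the kinesins, centromere, spindle and proliferation-marker genes, 7 of 10 were lower at 4 h in LPS cells, 1 in P3C cells and 1 in R848 cells. Nusap1, a spindle microtubule-binding protein, read 9.06 and 9.33 in LPS cells, 9.71 and 9.21 in P3C cells and 9.51 and 9.17 in R848 cells, against 10.19 and 10.05 in untreated cells. Its treated arrays lay below the untreated ones, by -0.93 (SE 0.197, adjusted p = 0.00232), -0.66 (adjusted p = 0.0425) and -0.78 (adjusted p = 0.0148). A second, dimmer Nusap1 probe, detected in 4 of 12 groups, gave -0.06, -0.08 and -0.07. The P3C call ended without P3C array B (-0.42), untreated array A (-0.59) or untreated array B (-0.73), and the R848 call without R848 array B (-0.61), untreated array A (-0.71) or untreated array B (-0.85).

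Prc1, which bundles the microtubules of the central spindle, read 10.99 and 10.89 in LPS cells, 11.59 and 11.48 in P3C cells and 11.39 and 11.36 in R848 cells at 4 h, against 11.72 and 11.74 in untreated cells. The LPS arrays stood apart from all others, by -0.79 (SE 0.112, adjusted p = 6.68e-05) from untreated cells, with -0.20 (adjusted p = 0.339) for P3C and -0.35 (adjusted p = 0.0501) for R848. Mki67, the gene of the proliferation antigen Ki-67, read 8.70 and 8.83 in LPS cells, 9.04 and 9.32 in P3C cells and 8.98 and 9.26 in R848 cells, against 9.58 and 9.55 in untreated cells. The Mki67 difference was -0.80 (SE 0.220, adjusted p = 0.0133) with LPS, with -0.39 (adjusted p = 0.341) for P3C and -0.45 (adjusted p = 0.234) for R848, and its call ended without LPS array A (-0.73), untreated array A (-0.78) or untreated array B (-0.82).

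Birc5 (survivin), of the chromosomal passenger complex, read 10.24 and 10.72 in LPS cells, 10.56 and 10.63 in P3C cells and 10.62 and 10.58 in R848 cells at 4 h, against 11.27 and 11.11 in untreated cells. Cenpa, the centromeric histone H3 variant, read 12.16 and 12.39 in LPS cells, 12.75 and 12.49 in P3C cells and 12.76 and 12.51 in R848 cells, against 12.80 and 13.04 in untreated cells. In neither gene did a treated array reach the untreated range. Birc5 differed by -0.71 (adjusted p = 0.0199) with LPS, with -0.59 for P3C and for R848, and Cenpa by -0.65 (adjusted p = 0.0166), with -0.31 and -0.29. The Birc5 call ended without LPS array A (-0.47), untreated array A (-0.64) or untreated array B (-0.79), and the Cenpa call without LPS array A (-0.53) or untreated array B (-0.53). Birc5 was also lower at 2 h with LPS, by -0.72 (adjusted p = 0.0356), ending without LPS array A (-0.54) or untreated array B (-0.47). The next brightest probe of Birc5 gave -0.59 with LPS at 2 h, not called over all probes. At 4 h that probe was called with LPS (-0.79) and R848 (-0.67). The dimmest kept probe gave -0.79 at 2 h and -0.74 at 4 h with LPS, neither called. Kif11, the motor that separates spindle poles, and Top2a, the topoisomerase of chromosome condensation, were lower with LPS at 4 h by -0.53 (adjusted p = 0.00570) and -0.57 (adjusted p = 0.0233). The Kif11 call ended without LPS array B (-0.34) or untreated array A (-0.47), the Top2a call without any 1 of its 4 arrays (-0.65 to -0.49), and a second, dimmer Top2a probe gave -0.15. Kif22, a chromosome-arm motor, read 9.12 and 9.89 in LPS cells at 2 h, 9.46 and 10.27 in P3C cells and 9.54 and 10.00 in R848 cells, against 10.36 and 10.71 in untreated cells, where the A arrays were below the B arrays in every group. It was lower with LPS at 2 h, by -1.03 (adjusted p = 0.0291), ending without LPS array A (-0.64), untreated array A (-1.20) or untreated array B (-0.86), and had -0.78 (adjusted p = 0.0581) at 4 h. Kif23, a motor of the central spindle, and Tpx2, which activates Aurora A, were not called through their brightest probes (-0.73 and -0.47 with LPS at 4 h). The dimmer probe of Kif23 was lower at 2 h with all 3 ligands, by -0.38, -0.36 and -0.42 (adjusted p = 0.0214, 0.0459 and 0.0169 over all probes), and with LPS at 4 h, by -0.47 (adjusted p = 0.00234).

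The G1 and G1/S genes and the G2/M genes are set side by side here as counts and medians. At 4 h 11 of 17 G1 and G1/S members and 12 of 23 G2/M members were called lower with LPS (16.0% of all genes). The medians were -0.60 and -0.65. With P3C 7 of 17 and 2 of 23 were called lower (5.43% of all genes), with medians of -0.44 and -0.28. With R848 9 of 17 and 2 of 23 were called lower (6.38% of all genes), with medians of -0.47 and -0.34. Some calls with P3C and with R848 ended in both phases when single arrays were left out. At 1 h the medians lay between -0.11 and -0.05 in both phases with every ligand, and at 2 h between -0.34 and -0.21. With LPS at 4 h 8 of the 11 G1 and G1/S calls held whichever array was left out, against 3 of the 12 G2/M calls (Mad2l1, Nusap1 and Prc1). With the second brightest probe where a gene had one, the G1 and G2/M medians at 4 h were -0.31 and -0.49 in LPS cells, -0.29 and -0.22 in P3C cells and -0.35 and -0.29 in R848 cells. No test was made of the difference between phases.

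**Figure D4:**
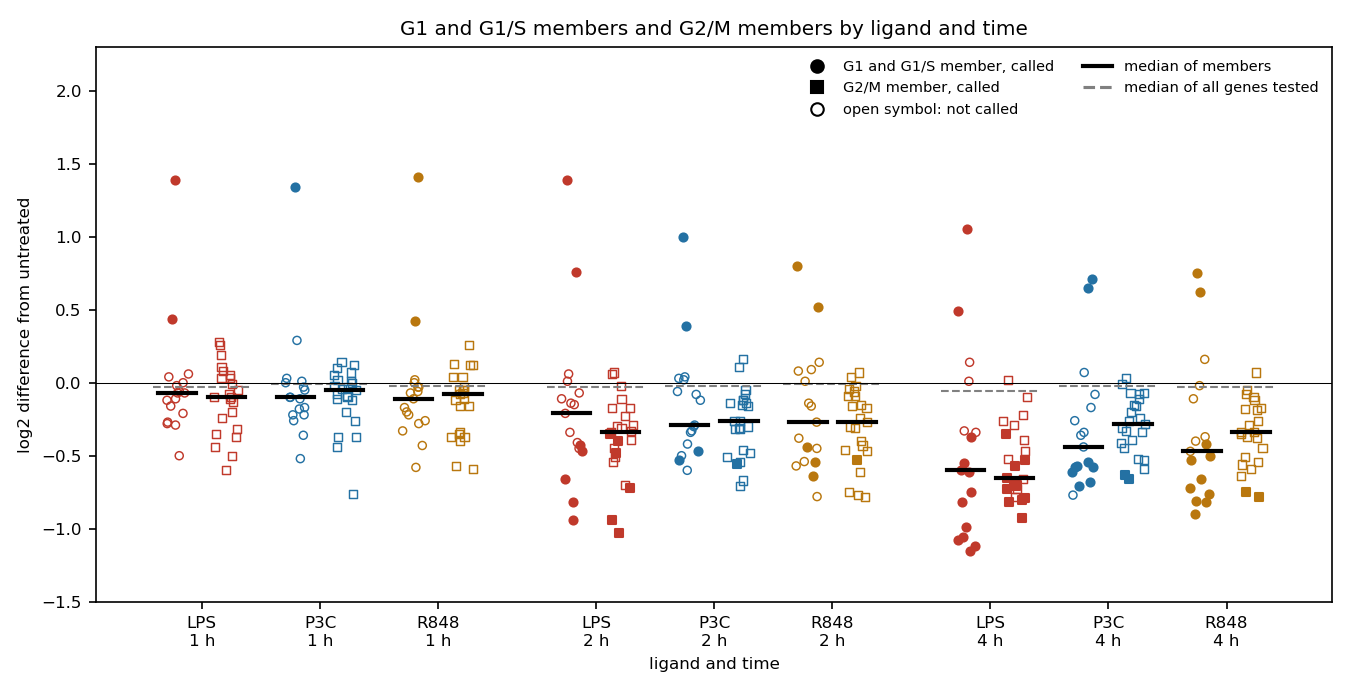
Log2 difference from untreated cells of each G1 and G1/S member (circles, n = 17) and each G2/M member (squares, n = 23) by ligand and time; filled symbols are called at an adjusted p under 0.05, black bars are medians of the members and dashed lines medians of all 8622 genes. With LPS at 4 h the medians of the phases lie at -0.60 and -0.65, and with P3C and R848 the G2/M squares are nearly all open.

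The ligands were compared directly at each time. LPS gave the lowest of the 3 differences in 33 of 40 members at 4 h, 20 at 2 h and 9 at 1 h, a count not made over all genes. At 4 h LPS minus P3C was below 0 in 33 of 40 members and in 5373 of 8622 genes. LPS minus R848 was below 0 in 35 members and 5306 genes. At 2 h these were 26 members and 4825 genes against P3C, and 23 members and 4945 genes against R848. Against P3C at 4 h, 4 members were called lower with LPS (1.73% of all genes) and 0 higher (4.08%): Prc1 by -0.59 (SE 0.112, adjusted p = 0.00329), Ccne1 by -0.55 (SE 0.122, adjusted p = 0.0118), Cdk2 by -0.51 (SE 0.0937, adjusted p = 0.00258) and E2f1 by -0.47 (SE 0.130, adjusted p = 0.0459). Against R848 at 4 h, 2 members were called lower with LPS (1.23% of all genes) and 0 higher (3.46%): Prc1 by -0.44 (adjusted p = 0.0342) and Cdk2 by -0.40 (adjusted p = 0.0190). In each of these pairs both LPS arrays lay below both arrays of the other ligand. Slide 9 held LPS, P3C and R848 arrays at 4 h, and on it LPS minus P3C was -0.59 for Prc1, -0.61 for Ccne1, -0.42 for Cdk2 and -0.59 for E2f1, and LPS minus R848 was -0.47 for Prc1 and -0.32 for Cdk2. The slide 9 arrays also made these calls, so their values describe the size on a shared slide and are no independent support. With the slide as a random block LPS left 12 members below P3C and 10 below R848, and the share of all genes was not counted for that setting. Against untreated cells at 4 h the block also raised the lower calls over all genes, from 1377 to 1634 with LPS. The larger member counts therefore do not show a difference particular to the members. At 2 h Myc was higher with LPS than with P3C (0.37, adjusted p = 0.0171; 1.30% of all genes were higher and 0.186% lower), with 0.43 on slide 8. LPS and R848 differed in 0 members at 2 h (1.10% of all genes were higher and 0.0928% lower), where 6 members had an unadjusted p under 0.05.

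Of these calls between ligands, Cdk2 between LPS and P3C held whichever array was left out. Prc1 against P3C ended without P3C array A (-0.54), Ccne1 without LPS array B (-0.48), P3C array A (-0.54) or P3C array B (-0.56), and E2f1 without any 1 of the 4 arrays (-0.56 to -0.38). Both calls against R848 ended without any 1 of their 4 arrays (-0.45 to -0.35 for Cdk2 and -0.49 to -0.39 for Prc1), and the Myc call at 2 h ended without LPS array B (0.27), P3C array A (0.34) or P3C array B (0.40). At 1 h limma's test called 0 members between LPS and P3C (0.209% of all genes were higher), 0 between LPS and R848 (0.104%) and 0 between R848 and P3C (0.0348%), with 0 at an unadjusted p under 0.05 in each. R848 and P3C also differed in 0 members at 2 h (0.0232% of all genes were higher) and, with 0 at an unadjusted p under 0.05 at either time, in no member at 4 h by limma's test (0% of all genes were called in either direction); the 40 differences of R848 minus P3C at 4 h ran between -0.23 and 0.14.

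**Figure D5:**
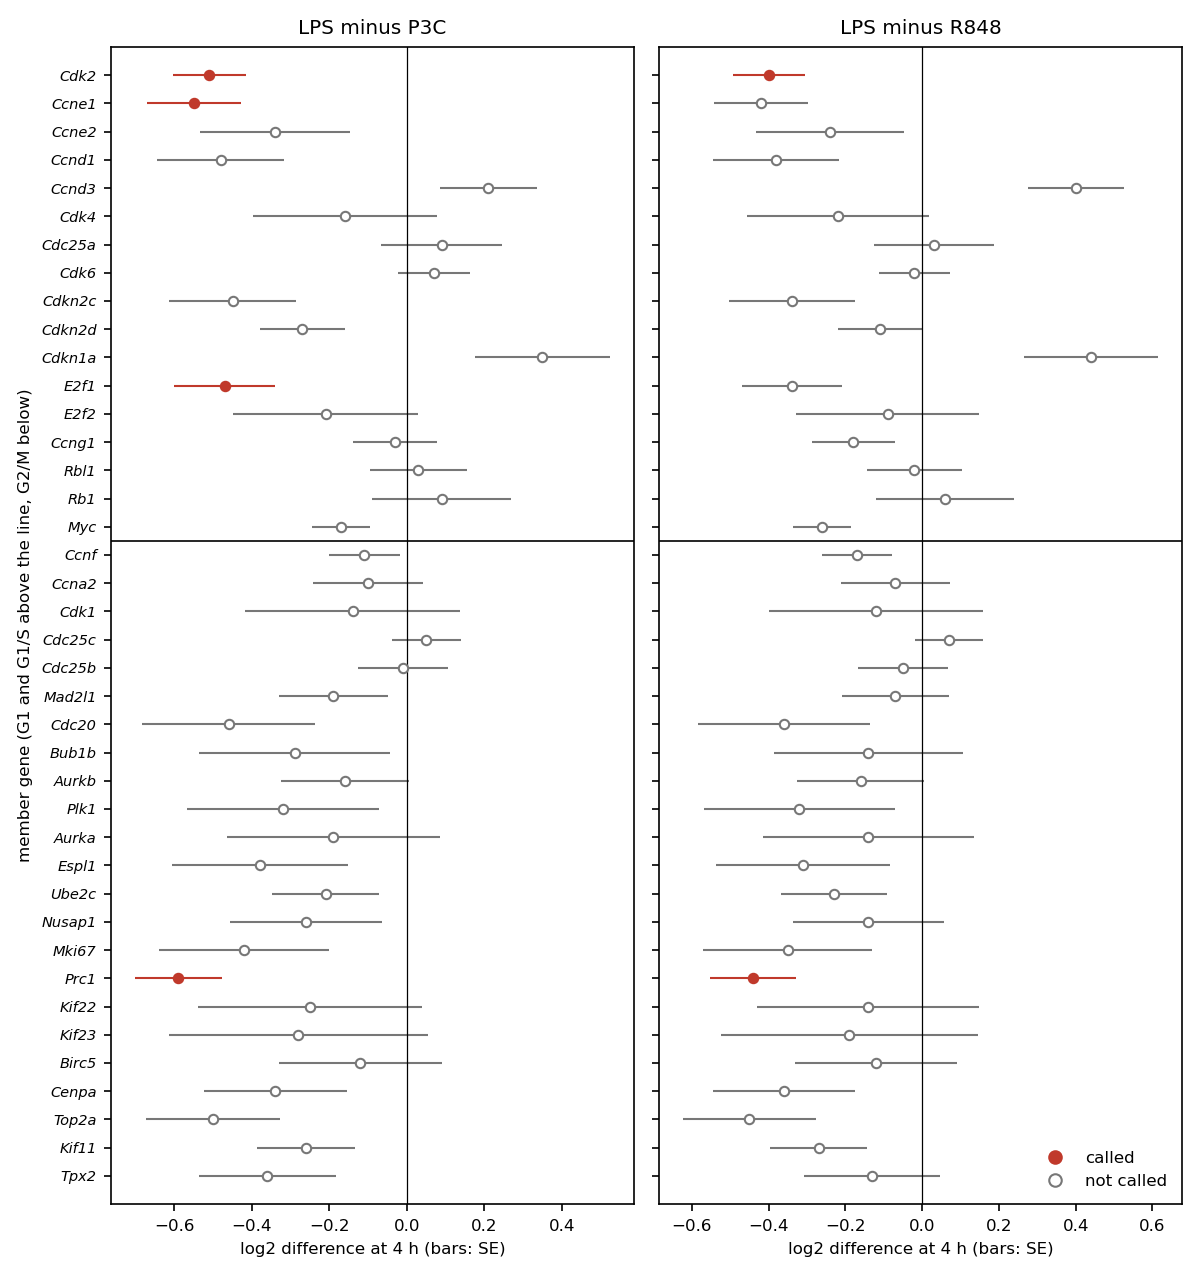
Difference at 4 h of LPS minus P3C (left) and LPS minus R848 (right) for each of the 40 members, with bars of 1 SE and G1 and G1/S genes above the line; filled red points are called at an adjusted p under 0.05. Most points lie left of 0 and Ccnd3 and Cdkn1a lie furthest to the right.

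The change between 1 and 4 h was tested as the response at 4 h minus the response at 1 h. With LPS 8 members were called, all more negative at 4 h (4.48% of all genes were, and 5.54% were more positive): Ccne1, Ccne2, Cdk2, E2f1, Ccng1, Mad2l1, Nusap1 and Prc1, with changes between -1.08 for E2f1 and -0.54 for Ccng1. With P3C Cdk2 was called, 1 member more negative (1.17% of all genes) and 0 more positive (1.75%), and with R848 Cdk2, E2f1 and Mad2l1 were called, 3 more negative (1.46%) and 0 more positive (2.08%). The untreated cells' own levels at 4 h minus 1 h gave 0 called members in limma's test (0.0116% of all genes were lower and 0.0580% higher), with 1 member at an unadjusted p under 0.05 and a median of 0.07. Within slides that held a treated array and an untreated array of an earlier time, a comparison added after the data were seen, the 23 members called lower with LPS at 4 h had a median of -0.74 against the untreated 2 h array on slide 7 and -0.62 on slide 9. The 15 members with no call had medians of -0.29 and -0.26 there, with 13 and 12 of them below 0. On slide 9 the 9 members called lower with P3C had a median of -0.59 (29 with no call, -0.20) and the 11 with R848 -0.67 (27 with no call, -0.10). The same treated arrays chose the called members, so these values describe their size on a shared slide and are no independent support.

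Other genes of the pathway were described in the same way. At 4 h 16.0%, 5.43% and 6.38% of all genes were called lower with LPS, P3C and R848. Called higher were 10.8%, 5.40% and 6.30%. Of 36 tested among 52 further mitosis genes, 19 were lower at 4 h in LPS cells, 7 in P3C cells and 9 in R848 cells, and 0 were higher, with medians of -0.44, -0.27 and -0.33. They included Anln (anillin, of the cleavage furrow; -1.23 with LPS, adjusted p = 1.69e-05), Cdca2 (-1.03, adjusted p = 0.00208) and the centromere gene Cenpn (-0.89, adjusted p = 6.79e-05). Of 8 tested among 12 DREAM, FOXM1 and B-Myb genes, 2 were lower with each ligand. Mybl2, encoding B-Myb, which activates G2/M genes with MuvB, averaged 7.86 ± 0.08 in LPS cells, 7.94 ± 0.05 in P3C cells and 7.94 ± 0.12 in R848 cells, against 9.11 ± 0.13 in untreated cells (SD, n = 2 each), and differed by -1.25, -1.16 and -1.17 (adjusted p = 4.45e-07, 3.19e-06 and 2.57e-06). The other call was Tfdp1 with LPS (-0.39, adjusted p = 0.0485) and Tfdp2 with P3C and R848 (-0.23 and -0.22), both partners of E2F factors.

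Of 15 tested among 30 further G1 regulators, 3 were higher (10.8% of all genes) and 3 lower (16.0%) with LPS at 4 h. E2f3, an activator E2F, was higher with each ligand (0.31, 0.31 and 0.28 for LPS, P3C and R848, adjusted p = 0.00851, 0.0166 and 0.0264), and with P3C and R848 it was the 1 gene called. The largest were E2f6, a repressor E2F (-1.05, adjusted p = 0.00132), Max, the partner of Myc (0.94, adjusted p = 0.000474), and Skp2, the ubiquitin ligase subunit that targets p27 (-0.82, adjusted p = 0.00208); with P3C and R848 these had -0.59 and -0.60, 0.23 and 0.27, and -0.33 and -0.46, none called. Of 10 tested among 15 p53 targets and antiproliferative genes, 6 were higher (10.8% of all genes) and 2 lower (16.0%) with LPS. With P3C 3 were higher (5.40%) and 2 lower (5.43%), and with R848 3 were higher (6.30%) and 2 lower (6.38%). Plk2 and Plk3, stress-responsive Polo-like kinases, were higher with every ligand (2.07, 1.84 and 1.91 for Plk2, adjusted p = 8.00e-08, 1.11e-06 and 6.09e-07; 1.51, 1.68 and 1.69 for Plk3, adjusted p = 0.00126, 0.00130 and 0.00105). Sesn1, a p53 target, was lower with every ligand (-1.65, -1.29 and -1.34, adjusted p = 1.99e-06, 7.19e-05 and 4.29e-05).

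The members that could not be tested were Ccnb1, Ccnb2, Bub1, Cenpe and Kif20a, which had no probe in the table used, and Ccnd2, Ccng2, Cdkn1b, Ttk and E2f8, whose probes passed the detection filter in no group. Signals of the last 5 ran between 6.60 and 6.93 and, of 24 arrays, E2f8 passed detection on 3 and the other 4 genes on 0. B cyclins and p27 are therefore not described here.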

How the data were processed

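Total RNA of RAW264.7 cells was amplified and hybridized to Illumina mouse BeadChips by the authors, with 24 arrays in 12 groups of 2. The deposited array files hold raw signal intensity for 45281 probes and a detection p-value for each probe against negative control beads. Per the labels, these were exported from GenomeStudio 2011.1, and the array depth is limited by the number of arrays alone. The authors also deposited a log2 quantile-normalized table of 23937 probes, which was used as an alternative. No columns of per-sample values were left out.

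Here, intensities were log2-transformed and quantile-normalized over all probes, as the methods describe. The detection filter asked for a p-value under 0.01 on both arrays of 1 group or more, which left 14119 probes, and 12540 of these had 1 gene symbol. The platform annotation named 19969 probes, whose symbols were updated from RefSeq by gene identifier (16512) or accession (1422), with 2035 unmatched and 534 symbols changed. Each of 8622 genes was represented by its kept probe with the highest mean signal. All 12 groups were fitted together with limma 3.58.1 in R 4.3.3 (lmFit and eBayes), contrasts were adjusted by Benjamini-Hochberg over all genes, and calls required an adjusted p under 0.05. The code was tested on simulated data. A group in which neither array passed detection gave a bound, computed as the mean of the measured group against the lowest signal passing detection or the probe's own value, whichever was higher.

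The members and gene lists were chosen with earlier results of these data known. Values of every array are given for members called at 4 h, up to 5 per role in order of the LPS difference, and for up to 3 members called at an earlier time only; up to 3 called genes are named from each other list and up to 5 members between ligands and over time. The alternatives tried were median scaling, neqc background correction, the authors' table, no detection filter, detection on all 24 arrays, the second brightest probe, the replicate letter or the slide as a block, fits of the compared arrays alone, untreated arrays pooled over time, and leaving out each array. Promoters were matched in RefSeq's table for GRCm38.p6 by symbol.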

Additional observations from a re-analysis of the deposited data

Results flagged for a closer look

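For 12 pairs of member and ligand, the response at 4 h differed from the response at 1 h by limma's test of the interaction between ligand and time (adjusted p under 0.05). In LPS cells these were E2f1 (-1.08, SE 0.184, adjusted p = 0.000990), Cdk2 (fell by 1.00, SE 0.133, adjusted p = 9.61e-05), Nusap1 (fell by 1.00, SE 0.278, adjusted p = 0.0313), Ccne2 (-0.98, SE 0.273, adjusted p = 0.0313), Mad2l1 (-0.93, SE 0.198, adjusted p = 0.00569), Ccne1 (-0.92, SE 0.172, adjusted p = 0.00218), Prc1 (-0.82, SE 0.158, adjusted p = 0.00269) and Ccng1 (-0.54, SE 0.153, adjusted p = 0.0340). In P3C cells Cdk2 differed (-0.58, adjusted p = 0.0267), and in R848 cells Mad2l1 (-0.87, adjusted p = 0.0214), E2f1 (-0.73, adjusted p = 0.0380) and Cdk2 (-0.55, adjusted p = 0.0309) did. Each response is relative to the untreated arrays of its own time, and the 3 ligands share those arrays. Of the 8 calls with LPS, 5 held whichever array was left out (Ccne1, Cdk2, E2f1, Mad2l1 and Prc1), whereas 0 of 1 held with P3C and 0 of 3 with R848. Groups of 2 arrays are too small for the search for single outlying arrays.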

How the results depend on the processing

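Of 97 calls among the members, 97 held with the authors' table, 96 with the slide as a random block, 92 without the detection filter, 87 with neqc, 66 with the second brightest probe, 61 with the compared arrays alone and 26 with median scaling, and none reversed in direction under any of these. Of those that could be fitted, 83 of 85 held with detection on all 24 arrays and 75 of 78 with pooled untreated arrays. Leaving out in turn each array that a call compares gave 436 refits of these calls, and the call held in 267 of them. The causes were not tested.

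Counts and medians that moved are given as members called, for LPS, P3C and R848 in that order where 3 values follow. With median scaling, 1, 0 and 0 were higher at 1 h, 0 (P3C) and 0 (R848) higher at 2 h and 1, 1 and 1 at 4 h, and 1, 0 and 1 were lower at 2 h and 0 (P3C) and 0 (R848) at 4 h. Between ligands LPS left 0 members below P3C and 0 below R848, and 3, 0 and 0 were called in the change between 1 and 4 h. The G1 medians at 4 h were -0.94, -0.53 and -0.60 and the G2/M medians -0.97 (LPS) and -0.41 (R848). Median scaling called 325 genes higher and 1428 lower with LPS at 4 h, in place of 934 and 1377. With P3C at 4 h it called 154 higher and 93 lower, in place of 466 and 468, and with R848 164 and 131, in place of 543 and 550. With detection on all 24 arrays, where Myc was not tested, 1 was higher at 1 h (LPS and R848), 1 at 2 h and 1 at 4 h with each ligand, 1 was lower between LPS and R848, and the G1 median with P3C was -0.49. With the second probe, 1 was higher with LPS at 1 h and 1 with P3C and R848 at 2 and 4 h, 1 was lower between LPS and R848 and 0 changed over time with P3C, with G1 medians of -0.31, -0.29 and -0.35 and G2/M medians of -0.49, -0.22 and -0.29.

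With the compared arrays alone, which leave fewer degrees of freedom, 0, 0 and 1 were higher at 1 h and 1, 0 and 0 at 2 h, 1 was lower with P3C at 1 h, 1, 0 and 0 were lower at 2 h, 19 with R848 at 4 h and 0 between LPS and R848, and 2 (P3C) and 0 (R848) changed over time. With the slide as a random block (consensus correlation 0.602), 1 was lower at 1 h with LPS and 1 with R848, 8 (P3C) and 9 (R848) at 2 h, and LPS left 12 members below P3C and 10 below R848. The block raised the calls over all genes too, at 2 h from 208 to 312 lower with P3C and from 279 to 414 with R848. With untreated arrays pooled over time, 2 were higher with P3C at 1 h, and 2, 2 and 3 were lower at 1 h, 17, 8 and 13 at 2 h and 15 (P3C) and 18 (R848) at 4 h, with G1 medians of -0.50 (LPS) and -0.41 (R848) and G2/M medians of -0.57, -0.21 and -0.23; pooling gives no value between ligands or over time. With neqc, 2 were higher with P3C at 1 h, 1 was lower between LPS and R848, 0 (P3C) and 1 (R848) changed over time, and the medians were -0.76, -0.63 and -0.77 for G1 and -0.77, -0.35 and -0.41 for G2/M. Without the detection filter 2 were higher with P3C at 1 h.

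With the replicate letter as a block, 97 of 97 calls were kept, 5 (P3C) and 9 (R848) members were lower at 2 h and 2 changed over time with P3C. Arrays of the same letter had correlations of their deviations between 0.0612 and 0.428 for ligand against untreated, and between ligands of 0.814, 0.773 and 0.847 at 2 h, 0.254 to 0.735 at 1 h and 0.773 for R848 and P3C at 4 h. With 2 arrays a group and no source that says a letter marks a shared batch, the letters were not taken to pair the arrays. Between LPS and P3C or R848 at 4 h the correlation was -0.297 and -0.362. Crossing the LPS letters at 4 h in the block fit, chosen after seeing the data, called 5 and 2 members. The block with uncrossed letters called 4 and 3, and the fit with no block 4 and 2. Over all genes the crossed block called 530 and 454, the uncrossed block 555 and 464 and the fit with no block 501 and 404.

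Leaving out 1 array gave 0 to 1 members lower with LPS at 1 h, 2 to 9 at 2 h and 13 to 18 at 4 h, 1 to 4 with P3C at 2 h and 4 to 7 at 4 h, and 6 to 9 with R848 at 4 h. Higher members numbered 1 to 2 with R848 at 1 h, 1 to 2 (P3C) and 1 to 3 (R848) at 2 h and 1 to 2 with P3C and with R848 at 4 h. Between ligands 1 to 3 (P3C) and 0 to 0 (R848) were called, and 5 to 7, 0 to 1 and 0 to 1 changed over time. G1 medians ran between -0.64 and -0.51 in LPS cells, -0.49 and -0.36 in P3C cells and -0.49 and -0.38 in R848 cells, and G2/M medians with LPS between -0.61 and -0.57.

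With 2 arrays a group and no slide shared by a treated array and its untreated control, slide and ligand cannot be told apart; the slide as a fixed block could not be fitted. On slides 8 and 9 the 7 calls between ligands had the same sign, but the same arrays made those calls, so this is no independent support. Members near the detection limit, such as Myc, Ccna2 and E2f2, have bounds or imprecise differences.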
